A study of Mus musculus with 6 samples.

Results

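Mast cell genes were followed in cells sorted as melanocyte stem cells from the skin of mice that make excess stem cell factor and from wild-type mice. The set comprised 10 genes of the mast cell programme: the proteases Cma1, Mcpt4, Tpsb2, Tpsab1 and Cpa3, the histamine-forming enzyme Hdc, the IgE receptor chains Fcer1a and Ms4a2, and the receptors Mrgprb1 and Mrgprb2. A probe was taken as a member when its RefSeq accession mapped to 1 of these genes, which gave 11 of the 55681 non-control probes and 9 of the 21368 named genes. No probe accession matched Tpsab1, which was not analysed here. The 6 arrays came from male mice, 3 of the genotype K14-SCF Tg and 3 WT. In the transgenic mice stem cell factor is expressed from the promoter of keratin 14, which is active in basal keratinocytes. In both genotypes the cells were taken from skin suspensions by green fluorescence (GFP positive) and low side scatter, a measure of granularity. What drives GFP in these mice, and their age, are not given in the sources used here.

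Mast cells are tissue leukocytes that depend on signalling from stem cell factor through KIT, the same receptor that melanocytes use. Their granules hold proteases bound to the proteoglycan serglycin together with histamine, and are released when antigen crosslinks IgE on the high-affinity IgE receptor or when basic peptides reach MRGPRB2. In mice, stem cell factor made by keratinocytes is known to raise the number of mast cells in the dermis. Granules scatter light sideways, so a gate on low side scatter would be expected to leave out granule-filled mast cells. The question put to these arrays was whether transcripts of mast cells accompany the sorted cells, and whether they do so more in K14-SCF Tg than in WT samples.

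All 16 probes of 12 melanocyte lineage genes were well above background on all 6 arrays, as were 73.7% of all non-control probes. The share was 88.2% for macrophage and dendritic cell, 85.7% for T cell, 72.7% for keratinocyte and 71.4% for fibroblast probes. It was 60.0% for pan-leukocyte and 28.6% for basophil probes. Detection alone therefore does not settle the identity of the sorted cells. Over all non-control probes, 83.9% to 87.1% were well above background on K14-SCF Tg arrays and 78.4% to 85.9% on WT arrays, and no spot was saturated. WT replicate 1 lay alone on its own slide, and the other 5 arrays shared another. Replicate 3 of each genotype lay in slide row 2, and all other arrays in row 1. Levels are given as log2 of a spot's processed signal divided by its array's 75th percentile, so each is set within its own array, and levels of different probes cannot be ranked against each other. Nothing in the labels ties the numbered replicates to separate animals, so the p-values cover the variation between these 6 samples, part or all of which may be technical. With 3 arrays a genotype, the number of arrays limits the precision. In sorted bulk RNA, fewer cells of a type and less RNA per cell cannot be told apart.

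The 4 receptor genes of the set were not well above background in either genotype. Neither chain of the IgE receptor, nor either of the Mrgpr receptors, was well above background on any of the 6 arrays, so 4 of the 9 genes with a probe (5 of 11 probes, 45.5%) had no signal well above background in either genotype, against 6.78% of all non-control probes. Fcer1a encodes the alpha chain that binds IgE, and its probe gave log2 levels of -7.82, -8.81 and -8.36 in K14-SCF Tg replicates 1 to 3, against -8.35, -8.55 and -7.86 in WT replicates 1 to 3. Ms4a2 encodes the beta chain, which amplifies the receptor's signal. Its levels were -8.12, -8.56 and -7.47 in K14-SCF Tg, against -8.06, -8.27 and -7.59 in WT. The genotypes overlapped on both probes, and at such low signal the order of the arrays has no meaning.

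Mrgprb2 encodes the receptor through which basic peptides and several drugs set off mouse mast cells without IgE. Its probe lay at -8.47, -8.26 and -8.44 in K14-SCF Tg and at -8.37, -8.56 and -7.96 in WT. The related receptor gene Mrgprb1 had 2 probes, which reached at most -7.49 in K14-SCF Tg and -7.53 in WT. On a linear scale the signals of these 5 receptor probes ran from 3.4 to 8.5, whereas the lowest signal called well above background was 17.6 to 21.6 on K14-SCF Tg arrays and 19.6 to 26.2 on WT arrays. The 308 negative control spots of each array, which match no mouse transcript, had a 95th percentile of 4.64 to 5.82 on K14-SCF Tg arrays and 5.36 to 7.51 on WT arrays. Of the 15 receptor measurements in each genotype, 6 in K14-SCF Tg and 1 in WT lay above that percentile of their own array. Above the 99th percentile there were 0 in K14-SCF Tg and 1 in WT, the first Mrgprb1 probe on WT replicate 1. The 99th percentile was 6.33 on that array and 16.3 to 50.7 on the others, so the cutoff was lowest there. In 23 of the 30 receptor measurements the signal equalled the scanner software's own error estimate within 3%, so these values carry no order, and no fold change is given for these genes. A looser flag of the software, for a positive signal that differs from background, was set for each receptor probe on at least 1 array, and on 3 arrays for the second Mrgprb1 probe.

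Genes of mast cells are known to be switched on by the GATA factors GATA1 and GATA2, which bind the core letters GATA. The 250 bases before the start of each gene were searched on both strands for the letters AGATAA and for the letters TGATAA. Of the 8 genes with a promoter in the RefSeq table (build GRCm38.p6), 5 held a match: Mcpt4, Cpa3, Fcer1a, Ms4a2 and Mrgprb2. A match was present in 16.6% of all 32851 promoters of that table. The 120 bases before the start are shown for 5 of these genes, chosen to show receptor genes not well above background on any array (Fcer1a, Ms4a2), a protease gene above background on 1 array (Cpa3) and protease genes above it on most or all arrays (Mcpt4, Cma1), with matches in capitals. A match on the opposite strand reads TTATCT in the printed sequence.
Fcer1a, chr1:173227230-173227349, minus strand: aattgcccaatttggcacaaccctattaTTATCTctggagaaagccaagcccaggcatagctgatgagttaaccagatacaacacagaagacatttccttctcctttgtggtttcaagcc
Ms4a2, chr19:11623720-11623839, minus strand: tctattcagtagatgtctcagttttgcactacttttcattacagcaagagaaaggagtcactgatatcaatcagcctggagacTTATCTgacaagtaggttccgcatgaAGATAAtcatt
Cpa3, chr3:20242182-20242301, minus strand: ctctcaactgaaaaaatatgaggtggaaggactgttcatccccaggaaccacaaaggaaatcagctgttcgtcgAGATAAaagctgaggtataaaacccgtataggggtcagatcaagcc
Mcpt4, chr14:56062311-56062430, minus strand: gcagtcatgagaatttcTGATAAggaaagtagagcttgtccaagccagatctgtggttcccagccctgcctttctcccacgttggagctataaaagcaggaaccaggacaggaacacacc
Cma1, chr14:55944676-55944795, minus strand: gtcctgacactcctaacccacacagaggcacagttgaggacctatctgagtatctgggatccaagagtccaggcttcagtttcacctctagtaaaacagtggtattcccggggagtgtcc
The match in Fcer1a began 92 bases before the start, those of Ms4a2 in the printed stretch 37 and 11 bases before it, that of Cpa3 46 and that of Mcpt4 103 bases before it. Cma1, Hdc and Mrgprb1 held neither motif in the 250 bases. Genes well above background and genes not well above it both occurred with and without a match, and a match is a run of letters and not a measured site.

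The proteases were more often above background than the receptors, and none passed the test between genotypes. Cma1 encodes the chymase of connective tissue mast cells, and its probe was well above background on all 6 arrays. Its log2 levels were -4.70, -5.04 and -4.72 in K14-SCF Tg, against -5.50, -5.10 and -5.07 in WT. All 3 K14-SCF Tg values lay above all 3 WT values, although the gap between the nearest arrays was small. The means were -4.82 ± 0.19 in K14-SCF Tg and -5.22 ± 0.24 in WT (SD, n = 3 each), a log2 fold change of 0.40 (SE 0.24, adjusted p = 0.953 by limma with Benjamini-Hochberg adjustment), so the difference did not pass the test. Among all 47709 tested probes, 5.63% were higher in K14-SCF Tg without overlap. The signal of Cma1 was low in linear units, at 51.2 to 62.5 on K14-SCF Tg arrays and 34.8 to 47.0 on WT arrays, and it exceeded the 99th percentile of the negative control spots on 5 of the 6 arrays. After normexp background correction and quantile normalization its log2 fold change was 0.18.

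Tpsb2 encodes a tryptase of mast cell granules, and both of its probes were well above background on all 6 arrays. The first probe gave -1.26, -1.28 and -0.70 in K14-SCF Tg, against -1.59, -0.99 and -1.98 in WT. The second probe gave -1.72, -1.65 and -1.82 in K14-SCF Tg, against -1.73, -1.58 and -1.46 in WT. The 2 probes disagreed in sign, and the genotypes overlapped on each. Their log2 fold changes were 0.44 (SE 0.34) and -0.15 (SE 0.21), with limma adjusted p of 0.976 and 0.990. The 95% intervals, -0.40 to 1.29 and -0.66 to 0.37 on the log2 scale, both include 0. Leaving out 1 array moved the first probe to 0.22 (without WT replicate 3), 0.26 (without K14-SCF Tg replicate 3) or 0.71 (without WT replicate 2), and the second to -0.08 (without WT replicate 3).

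Mcpt4 varied widely among arrays of the same genotype. It encodes a chymase of connective tissue mast cells that works bound to heparin. Its log2 levels were -4.99, -2.98 and -5.81 in K14-SCF Tg, against -2.41, -5.89 and -5.80 in WT, and only WT replicate 3 was not well above background. K14-SCF Tg replicate 2 and WT replicate 1 stood above the other 4 arrays, and the whole range of 3.48 (11.2-fold) compared with a median range of 1.40 among tested probes. The log2 fold change was 0.10 (SE 1.18, limma adjusted p = 1.00), with a 95% interval of -2.81 to 3.01. On the slide that holds both genotypes, which leaves out WT replicate 1, it was 1.25.

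Cpa3 encodes carboxypeptidase A3, which is stored with the chymases and is widely used to mark mast cells. Its probe was above background on 1 array alone. The log2 levels were -8.52, -8.79 and -7.12 in K14-SCF Tg, against -7.68, -4.69 and -7.91 in WT, and the 1 array above background was WT replicate 2. Its signal on this array was 62.4 in linear units, and on the other 5 arrays the probe was not well above background. With 1 measured array the gene was not tested between genotypes, and no fold change is given.

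**Figure D1:**
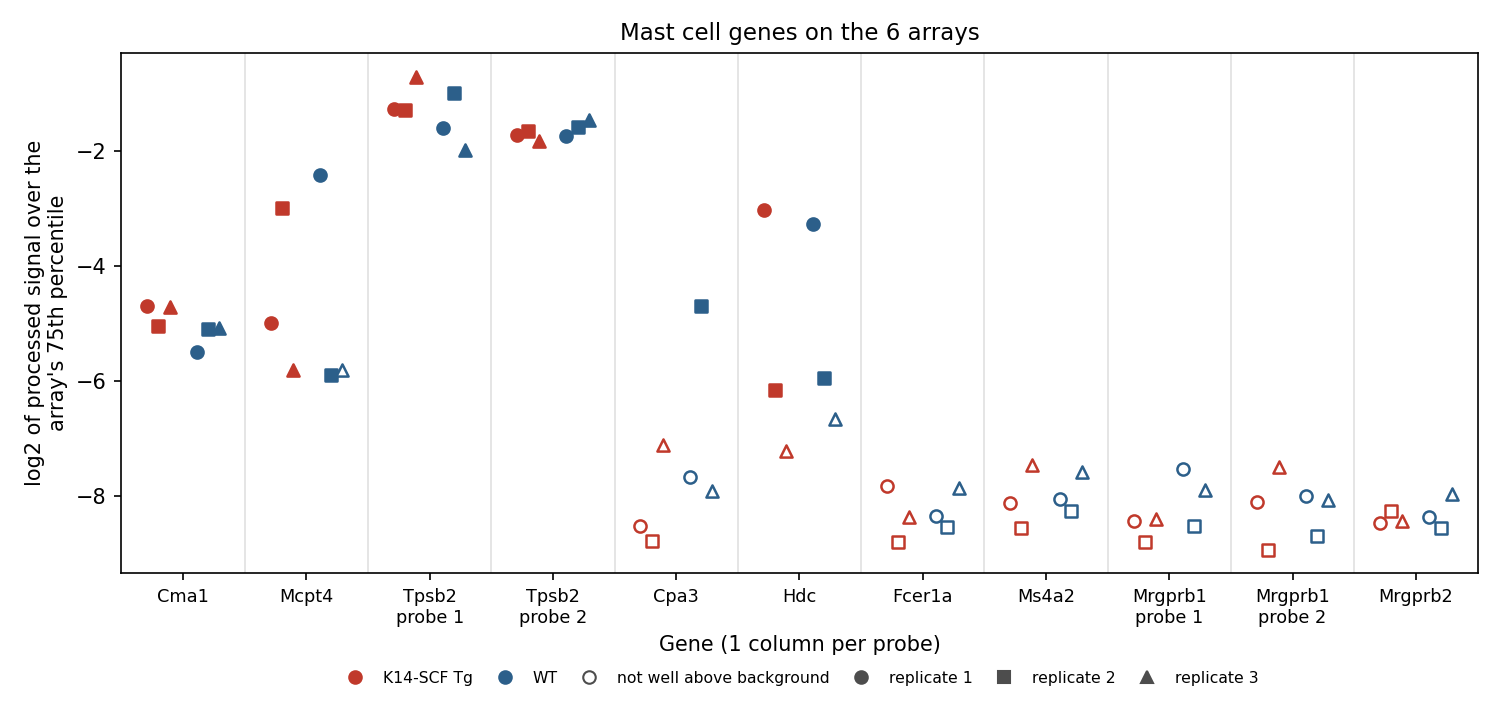
Level of each mast cell gene probe on each array, as log2 of its signal over that array's 75th percentile (vertical axis), with 1 column per probe, K14-SCF Tg (red) left of WT (blue), the symbol shape for the replicate, and open symbols for probes not well above background. The 5 receptor probes on the right are open on all 6 arrays, Cpa3 is filled on WT replicate 2 alone, and Mcpt4 and Hdc have high arrays in both genotypes. Columns are different probes, so heights compare only within a column.

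Hdc encodes histidine decarboxylase, the enzyme that makes histamine. Its levels were -3.03, -6.15 and -7.22 in K14-SCF Tg, against -3.27, -5.94 and -6.66 in WT. In each genotype replicate 1 was high, replicate 2 lower, and replicate 3 not well above background. The means were -5.47 ± 2.17 in K14-SCF Tg and -5.29 ± 1.78 in WT (SD, n = 3 each). The log2 fold change was -0.18 (SE 1.35, limma adjusted p = 1.00), with a 95% interval of -3.49 to 3.14, and it was 0.83 on the slide that holds both genotypes.

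The array on which a member was highest changed from gene to gene. Cpa3 was highest on WT replicate 2, Mcpt4 on WT replicate 1, Hdc on K14-SCF Tg replicate 1 and the first Tpsb2 probe on K14-SCF Tg replicate 3. Among K14-SCF Tg arrays Hdc was high on replicate 1 and Mcpt4 on replicate 2, whereas both were high on WT replicate 1. On the single array with Cpa3 above background, Mcpt4 was not among its high values. The number of member probes well above background was 5, 5 and 4 of 11 on K14-SCF Tg replicates 1 to 3, against 5, 6 and 3 of 11 on WT replicates 1 to 3, so this count did not separate the genotypes either.

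Set against the whole array, no member differed between the genotypes by the test. Of the 11 probes, 5 (from 4 genes) reached the minimum for testing, which was a signal well above background on 3 or more arrays. None was called at an adjusted p under 0.05 by limma, and 0 of the 5 had an unadjusted p under 0.05, while 5.46% of all tested probes had one. Over the whole array 1 probe was called higher in K14-SCF Tg (0.00210% of those tested) and 0 were called lower (0%). Beside Cma1, the 1 probe higher without overlap, 0 of the 5 were lower without overlap (4.71% of all tested probes). With 5 probes, counts of 0 and 1 cannot be told apart from these shares. The members' adjusted p ranged from 0.953 to 1.00, and 3 fold changes were positive and 2 negative. Their median log2 fold change was 0.10, beside 0.01 over all tested probes. The intervals of Mcpt4 and Hdc include changes of several fold in either direction.

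**Figure D2:**
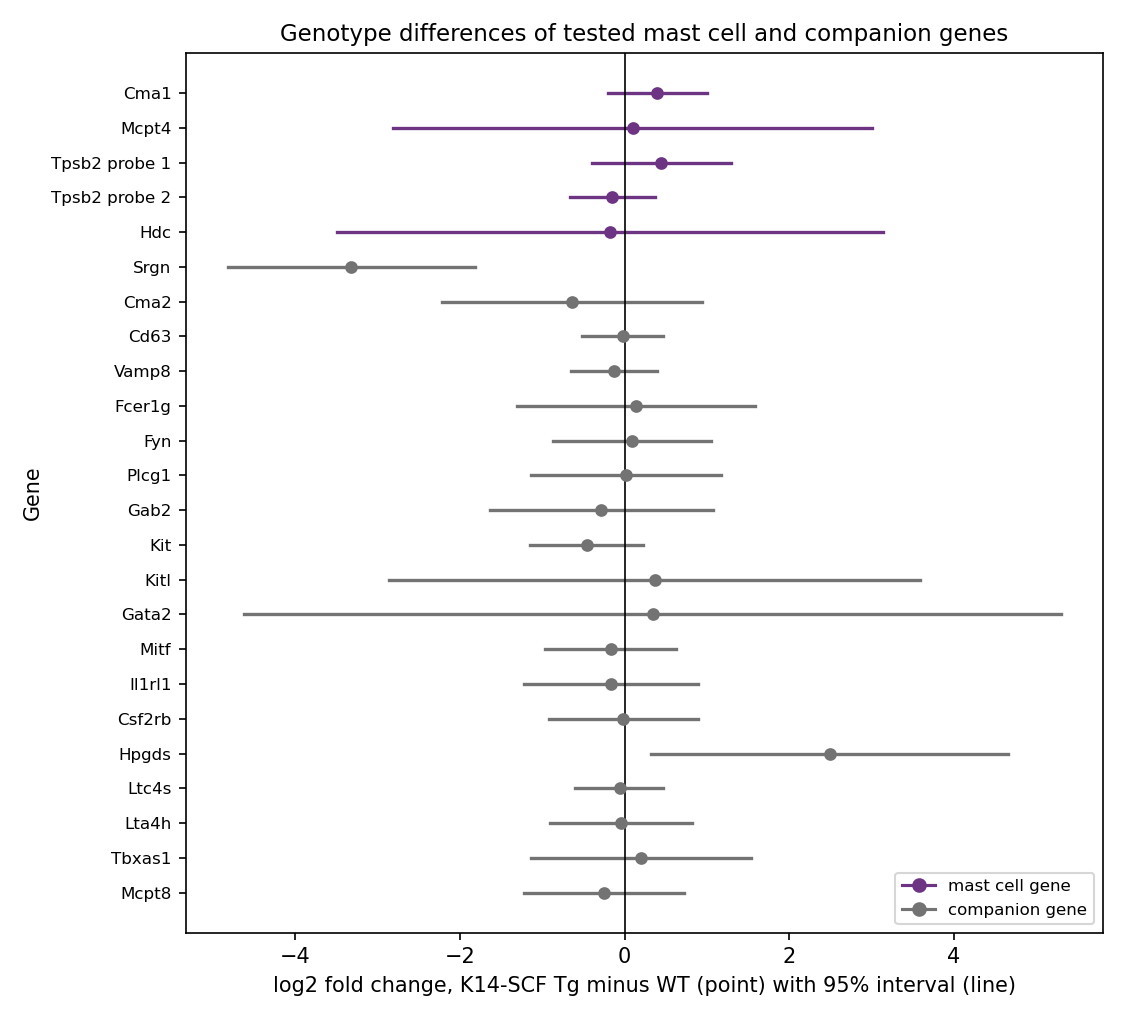
Log2 fold change of K14-SCF Tg minus WT (points) with its 95% interval (lines) from limma, for the 5 tested mast cell gene probes (purple) and for 19 companion genes (grey). The intervals of all 5 mast cell gene probes cross 0, those of Mcpt4 and Hdc are the widest among them, and the intervals of Srgn and Hpgds, which do not cross 0, belong to genes that did not pass the adjusted threshold.

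The rest of the mast cell programme was read from 4 lists of 56 genes: granule contents and their processing, signalling below the IgE receptor, regulators and surface receptors, and enzymes of lipid mediators. Of these, 48 were tested with 1 probe per gene, and limma called 0 of them, against 0.00544% of all genes. An unadjusted p under 0.05 was found for 4, beside 5.41% of all genes. The genotypes did not overlap for 5, with 4 higher and 1 lower in K14-SCF Tg, against 5.13% higher and 5.41% lower of the 18368 genes tested. The median log2 fold change of the 48 was -0.02, beside -0.01 over all genes. By list, positive and negative fold changes numbered 5 and 9 of 14 for granule contents, 8 and 5 of 13 for IgE receptor signalling, 7 and 7 of 14 for regulators, and 3 and 4 of 7 for lipid enzymes.

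Among granule genes, Srgn had the smallest p. It encodes serglycin, the proteoglycan core that holds the proteases in the granule and that other leukocytes and endothelial cells make too. Its log2 levels were -7.19, -6.59 and -5.40 in K14-SCF Tg, against -3.92, -2.97 and -2.32 in WT. It was well above background on 1 K14-SCF Tg array and on all 3 WT arrays, and all K14-SCF Tg values lay below all WT values. The log2 fold change of -3.32 (SE 0.61) had an unadjusted limma p of 0.00167 and an adjusted p of 0.514, so it did not pass. As 2 of the 3 K14-SCF Tg values were not well above background, the size of this fold change depends on how background is treated, and with normexp correction and quantile normalization it was -1.69. The summed linear levels of the 7 fibroblast markers separated the genotypes the same way, at 8.15 to 21.7 in K14-SCF Tg and 23.1 to 68.6 in WT. That sum was mostly Col1a2 and Col1a1. Fold changes were negative for 6 of the 7 genes, beside 9440 of the 18368 genes tested, and that of Pdgfra was positive (1.26). Of the 7, 2 were lower without overlap, beside 5.41% of all genes, and none was called. The sum over T cell markers also separated the genotypes, at 4.10 to 5.90 in K14-SCF Tg and 8.59 to 9.81 in WT, and was mostly Cd247 and Thy1. Of the 6 T cell genes tested, 4 had negative fold changes. The 3 lower without overlap, beside 5.41% of all genes, were Thy1 (-1.69), Lck (-0.90) and Cd247 (-0.64). The other Cd247 probe overlapped (0.04), as did Cd3e (-0.20), and the fold changes of Cd3d and Cd3g were positive (0.31 and 0.35). Fold changes were positive for 6 of 8 pan-leukocyte genes (median 0.60) and 7 of 10 macrophage and dendritic cell genes (median 0.13). Over all genes, 8928 of 18368 were positive. In these 2 lists 1 and 0 genes were higher without overlap, beside 5.13% of all genes. Ptprc and Itgb2 lay near 0 (-0.08 and 0.02), and Cd53 (-0.42) and Cd74 (-1.61) were negative. Of the 4 basophil genes tested, 2 were positive and 2 negative. No gene of these lists was called. The part of any of these cells in the Srgn difference was not tested.

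Other granule genes had smaller differences, and none passed the test. Cd63 and Vamp8, which encode a tetraspanin of lysosome-related organelles and a protein of granule fusion, were above background on every array with log2 fold changes of -0.02 (SE 0.20) and -0.13 (SE 0.21). Cma2, a chymase gene related to Cma1, had -0.94, -0.79 and -0.91 in K14-SCF Tg, against 1.24, -0.83 and -1.12 in WT, so that WT replicate 1 alone stood apart. The basophil protease gene Mcpt8 gave -5.67, -5.30 and -4.66 in K14-SCF Tg, against -5.54, -4.75 and -4.59 in WT. Its fold change of -0.25 (SE 0.39) lay within its error.

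The receptor that mast cells share with melanocytes was above background on all arrays. Kit, the receptor of stem cell factor, had log2 levels of 3.87, 4.10 and 3.44 in K14-SCF Tg, against 4.35, 4.47 and 3.97 in WT, a log2 fold change of -0.46 (SE 0.28, limma adjusted p = 0.954). Kitl encodes stem cell factor itself. It lay at -2.73, -2.28 and 0.48 in K14-SCF Tg and at -3.13, -3.06 and 0.55 in WT, with replicate 3 the highest in both genotypes. Replicate number and slide row cannot be told apart for these arrays, which alone lay in row 2. With the slide row as a covariate, the log2 fold change of Kitl, 0.37, had an SE of 0.26, against 1.31 without it. Kit and the transcription factor gene Mitf (log2 fold change -0.17, SE 0.32) also belong to the melanocyte list, so their levels do not bear on mast cells alone.

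Gata2, the GATA factor gene needed for mast cell development, had log2 levels of -5.29, -7.48 and -3.09 in K14-SCF Tg, against -8.28, -1.50 and -7.09 in WT. It was well above background on 2 K14-SCF Tg arrays and on WT replicate 2, the array that also held the highest Cpa3 signal. Genes of other lists peaked on WT replicate 2 too, such as Krt14 of keratinocytes (3.28) and Cd74 of macrophages and dendritic cells (1.97). Mcpt4 was lowest there (-5.89). Fcer1g, the gamma chain that the IgE receptor shares with Fc receptors of other leukocytes, was above background on all 6 arrays, unlike both chains named above. Its levels were -3.31, -3.18 and -2.10 in K14-SCF Tg, against -3.58, -1.90 and -3.53 in WT (log2 fold change 0.14, SE 0.59). Il1rl1, the receptor for interleukin 33, gave -5.40, -5.10 and -5.72 in K14-SCF Tg, against -4.84, -4.78 and -6.09 in WT, without a separation of the genotypes. Its other probes were well above background on 0 and on 1 of the 6 arrays.

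Of the 19 probes for signalling genes below the IgE receptor, 15 (78.9%) were well above background on all 6 arrays, near the 73.7% of all non-control probes. The log2 fold changes of the kinase gene Fyn, the phospholipase gene Plcg1 and the adaptor gene Gab2 were 0.09 (SE 0.39), 0.02 (SE 0.47) and -0.28 (SE 0.55). Among lipid mediator genes, Hpgds, the prostaglandin D2 synthase of mast cells and other leukocytes, had -1.70, -1.87 and -3.96 in K14-SCF Tg, against -6.49, -4.06 and -4.46 in WT. Every K14-SCF Tg value was above every WT value, and the probe was not well above background on WT replicate 1. The log2 fold change of 2.49 (SE 0.88) had an unadjusted limma p of 0.0307 and an adjusted p of 0.871, so it did not pass, and it was 1.75 without WT replicate 1 and 1.39 with normexp correction and quantile normalization. The leukotriene enzyme genes Ltc4s and Lta4h gave -0.06 (SE 0.22) and -0.04 (SE 0.35), and the thromboxane synthase gene Tbxas1 gave 0.20 (SE 0.55).

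**Figure D3:**
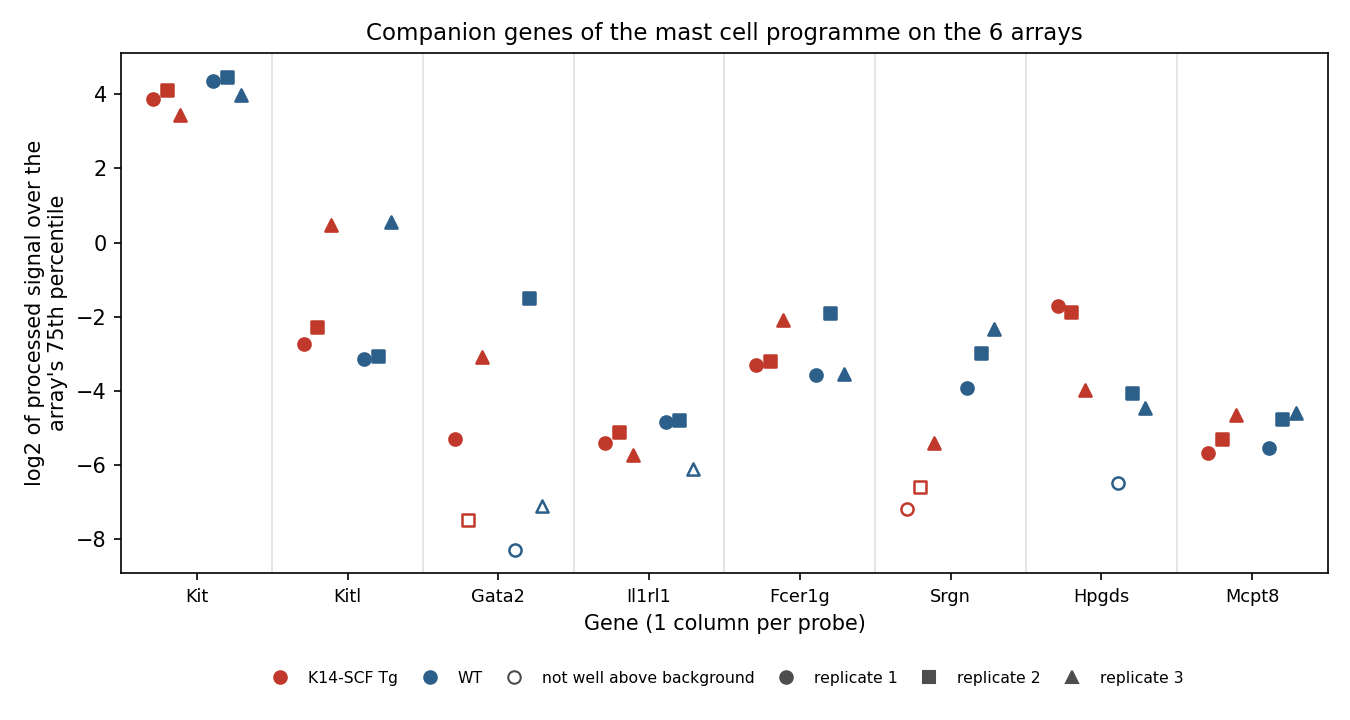
Level of 8 companion genes on each array, as log2 of the signal over that array's 75th percentile (vertical axis), with K14-SCF Tg (red) left of WT (blue), the symbol shape for the replicate, and open symbols for arrays on which the probe was not well above background. Kit lies between 3.44 and 4.47 on all arrays, the 3 K14-SCF Tg values of Srgn lie below and those of Hpgds above the WT values, and Gata2 scatters over both genotypes.

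Mast cell genes were detected less than the arrays as a whole, which is given as a description with no test. Between 36.4% and 45.5% of the 11 member probes were well above background on a K14-SCF Tg array, and between 27.3% and 54.5% on a WT array. The 7 basophil probes were detected at 57.1% on each K14-SCF Tg array and 28.6% to 71.4% on WT arrays. The 10 probes of the pan-leukocyte list were above background for 80.0% to 90.0% on K14-SCF Tg arrays and for 70.0% on each WT array, with summed levels of 1.08 to 2.08 in K14-SCF Tg and 0.679 to 1.13 in WT. None of the pan-leukocyte genes was called (0 of 8 tested, limma), and their part in the values of leukocyte genes named above, such as Fcer1g and Hpgds, was not tested. Keratinocyte probes were above background for 90.9% to 100% on K14-SCF Tg arrays and 72.7% to 90.9% on WT arrays. The lowest shares of the mast cell, basophil and keratinocyte lists were all on WT replicate 3. That array also had the lowest share of all non-control probes (78.4%). The summed linear level of the tested mast cell genes was 0.584 to 0.678 in K14-SCF Tg and 0.311 to 0.646 in WT, so the genotypes overlapped. The first Tpsb2 probe made up 68.5% to 90.8% of this sum in K14-SCF Tg and 51.3% to 89.0% in WT. As levels of different probes cannot be ranked, such a sum compares arrays within 1 list only, and its brightest probes can set it. The sums of 2 companion lists were lower in K14-SCF Tg without overlap. That of granule contents was 38.2 to 39.8 in K14-SCF Tg and 41.0 to 42.3 in WT, of which Cd63 and Vamp8 made up the greater part. That of regulators and surface receptors was 26.2 to 28.1 in K14-SCF Tg and 32.3 to 34.1 in WT, of which Kit and Mitf, both melanocyte genes, made up the greater part. For Cd63, Vamp8, Kit and Mitf taken singly, the genotypes overlapped.

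**Figure D4:**
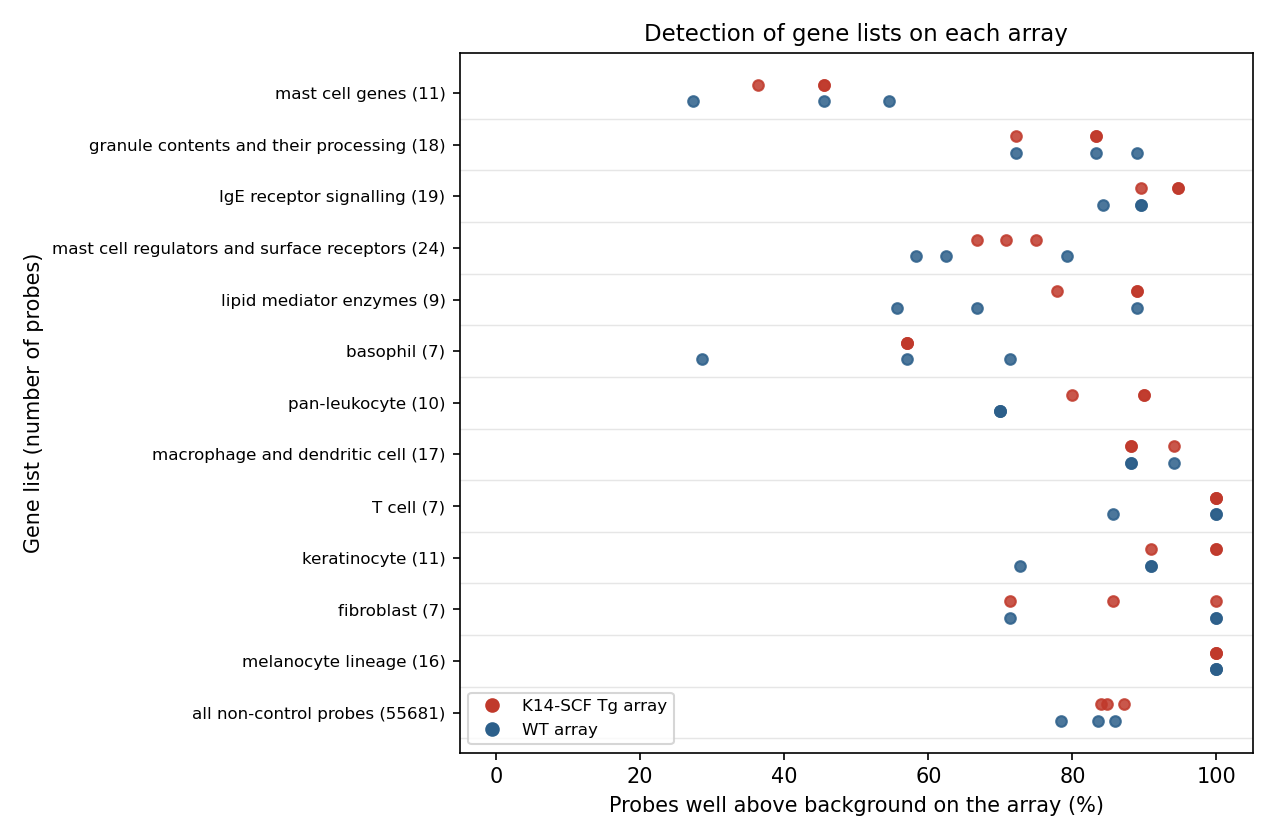
Share of each list's probes that were well above background (horizontal axis, percent), with 1 point per array, K14-SCF Tg (red) above WT (blue) in each row, and the number of probes in brackets. Mast cell genes lie between 27.3% and 54.5%, and the melanocyte lineage list lies at 100% on all 6 arrays.

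The 3 member probes above background on all arrays (Cma1 and the pair of Tpsb2 probes) had a mean profile that varied little, with deviations from their own means of 0.10, 0.00 and 0.25 in K14-SCF Tg, against -0.28, 0.10 and -0.17 in WT. Over these 6 arrays the genes nearest to that profile were Tmem59l, Tas2r104, Gm11981, Sgca and Pdyn. Their mean absolute differences from it were 0.034, 0.046, 0.051, 0.054 and 0.056 on the log2 scale, among 18364 genes. Among so many genes, 6 arrays leave many near neighbours of a flat profile, and these names are given as a description only.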

How the data were processed

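Cells sorted from skin (3 K14-SCF Tg and 3 WT samples) were each hybridised to a 1-colour Agilent array. Per the file headers, the deposited intensity of a spot is its processed signal, background-subtracted and detrended within the array by Agilent Feature Extraction 10.7.1.1, with the software's error estimate and the median spot and background intensity beside it. The deposited flags (well above background, positive and significant, saturated, outlier, control) are 0 or 1 marks, per the file headers, except that control types may be negative. The authors also deposited a table of linear ratio values. Each of its columns equalled the processed signal over 1 constant (1404.6 to 1678 by array, 100% of values within 0.001), so its scale and direction are known. Its column medians were 0.184, 0.188 and 0.176 in K14-SCF Tg and 0.170, 0.177 and 0.169 in WT. The probe design refers to build mm9.

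Control spots and outlier spots were left out, and spots of a probe were averaged. Values were log2 of a spot's processed signal divided by its array's 75th percentile. Probes were named through their RefSeq accession and a RefSeq table of GRCm38.p6 (28331 of 29786 matched). Probes with a signal well above background on 3 or more arrays were tested with limma 3.58.1 in R 4.3.3 (no covariates, 2-sided), and p-values were adjusted by Benjamini-Hochberg over the 47709 probes, with calls at an adjusted p under 0.05. Residual and prior degrees of freedom were 4 and 1.91. Every member probe was kept, tested or not. From each companion list the 3 tested genes with the highest mean level were named, plus Kit, Kitl, Fcer1g, Gata2, Il1rl1, Hpgds, Srgn and Mcpt8, and the 5 genes nearest in profile to the members above background on all arrays. For a companion gene, the tested probe of highest mean level was used. The members and lists were chosen with earlier results of these data known. The steps were tested on simulated data. Alternatives covered normalization, background correction, the deposited table, filters, slide, slide row, replicate number, the prior variance, each array left out, and the rule of detection.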

Additional observations from a re-analysis of the deposited data

How the results depend on the processing

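Members called stayed at 0 and companion genes called at 0 under every alternative run, the replicate block (0 called) included. The count of all probes called higher, 1, became 0 under normexp correction with quantile normalization, the filter on all 6 arrays, the slide as a block, the slide row, the replicate block, and the trended and robust prior, and ranged from 0 to 0 when an array was left out. The replicate numbers were not taken to pair the samples. Deviations of same-numbered arrays correlated at 0.019, 0.052 and 0.131, against -0.098 to 0.055 for arrays of different number. The highest value belongs to the replicate 3 arrays, which alone shared slide row 2, so number and row cannot be told apart there. The replicate block left the fold change of Hdc at -0.18 with an SE of 0.27, against 1.35 without it. Of 378 alternative values of 24 fold changes, 325 kept direction and side of the threshold and 53 reversed, in 16 results. The smallest adjusted p was 0.514.

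The cause of the reversals was not tested. With quantile normalization, Mcpt4 was -0.0018, Cd63 0.01, Csf2rb 0.01 and Lta4h 0.02. With normexp, Mcpt4 was -0.16, Cd63 0.0009, Csf2rb 0.01 and Gata2 -0.24. With median centring, Plcg1 was -0.06. With the slide as a block, Hdc was 0.83, Cma2 0.10, Gab2 0.06, Lta4h 0.03, Kitl -0.26, Fcer1g -0.15, Gata2 -0.99 and Il1rl1 0.03. With 1 array left out, values ranged from -0.70 to 1.25 for Mcpt4, -1.39 to 0.83 for Hdc, -0.07 to 0.01 for Cd63, -1.08 to 0.10 for Cma2, -0.44 to 0.27 for Plcg1, -0.77 to 0.09 for Gab2, -0.28 to 0.42 for Fyn, -0.42 to 0.0028 for Mitf, -0.37 to 0.18 for Csf2rb, -0.36 to 0.20 for Lta4h, -0.14 to 0.03 for Ltc4s, -0.35 to 0.52 for Tbxas1, -0.63 to 1.58 for Kitl, -0.24 to 0.69 for Fcer1g, -0.99 to 2.40 for Gata2 and -0.59 to 0.06 for Il1rl1.

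The alternatives to the rule of detection were chosen after seeing the data. Member probes above background on all arrays numbered 3, against 5 with the positive-and-significant flag, 2 with the 99th percentile of negative controls, and 3 to 4 with 1 array left out. Member probes above background on no array numbered 5, against 0, 4, and 5 to 6 under the same changes. Signals this close to background and 3 arrays a genotype limit what the receptor genes, Cpa3, Mcpt4 and Hdc can show.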

Other observations

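Among the companion lists, several genes outside the rule for naming are given here because their counts were small, so they were chosen after their values were seen. The 4 companion genes whose K14-SCF Tg values all lay above the WT values on the probe used for the gene were Syk, Lat, Itga2 and Hpgds, and Srgn was the 1 gene with all K14-SCF Tg values below on that probe. Of the 3 probes of Stim1, which encodes a calcium sensor, another one was also lower in K14-SCF Tg without overlap, at -0.88, -1.14 and -2.04 in K14-SCF Tg, against -0.56, -0.40 and -0.39 in WT (log2 fold change -0.91, SE 0.35, adjusted p = 0.895), while the other probes overlapped. Itga2, the integrin alpha 2 chain found on basophils and some mast cells as well as on epithelial cells, had log2 levels of -2.48, -4.60 and -2.56 in K14-SCF Tg, against -5.95, -5.18 and -7.55 in WT. Its log2 fold change of 3.01 (SE 0.83) had a limma adjusted p of 0.705. On WT replicate 3 Itga2 was not well above background, so the size of this fold change depends on how background is treated. The adaptor gene Lat, used by mast cells and T cells, gave 0.40, 0.13 and 0.31 in K14-SCF Tg, against -1.35, -0.14 and -0.32 in WT (log2 fold change 0.88, SE 0.37, adjusted p = 0.918). The kinase gene Syk had a log2 fold change of 0.52 and an adjusted p of 0.949. The calcium channel gene Orai1, which opens after the IgE receptor is engaged, had a log2 fold change of -1.73 (SE 0.65, unadjusted p = 0.0389, adjusted p = 0.890) on 1 probe and -0.55 (SE 0.51) on the other.

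Single arrays stood apart for further granule genes, also chosen after their values were seen. Tph1, the enzyme gene for serotonin in mast cells, had log2 levels of -4.89, -0.63 and -5.54 in K14-SCF Tg, against -4.39, -5.03 and -5.09 in WT, with K14-SCF Tg replicate 2 high. The mucosal mast cell protease gene Mcpt1 had -6.53, -6.34 and -6.22 in K14-SCF Tg, against -3.06, -5.95 and -7.21 in WT, with WT replicate 1 high. These are the 2 arrays on which Mcpt4 was high as well. Other members did not follow: Cma1 was lowest on WT replicate 1 (-5.50), and Cpa3 was not well above background on either array. Hdc was high on WT replicate 1 (-3.27) but not on K14-SCF Tg replicate 2 (-6.15). Genes of other cells also peaked there, the keratinocyte gene Krtdap on K14-SCF Tg replicate 2 (-0.50) and the fibroblast gene Dpt on WT replicate 1 (-1.80).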
